A study of Mus musculus with 6 samples.

Results

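Chemokines and their receptors were examined in embryonic mouse hearts, in which the transcription factor gene Wt1 had been deleted or not. The set held every gene of the count table whose symbol names a CC, CXC, CX3C or XC chemokine (Ccl, Cxcl, Cx3cl1, Xcl1), a chemokine receptor (Ccr, Cxcr, Cx3cr1, Xcr1) or an atypical chemokine receptor (Ackr, Ccrl2), which gave 61 of the 46983 genes listed. The platelet chemokines Pf4 and Ppbp carry other symbols and were kept apart. RNA was sequenced from whole hearts at E13.5 (midgestation), with 1 heart per library, from embryos on a mixed C57BL/6 x DBA/2 background. The 3 mutant hearts (replicates 1, 5 and 10) have the labelled genotype TnnT2Cre;Wt1flox, in which Cre recombinase under the cardiac troponin T promoter deletes floxed Wt1. The 3 control hearts (replicates 2, 3 and 5) are labelled wild type, and the methods describe them as Cre-negative embryos that also carried both floxed Wt1 alleles, so the floxed alleles were shared by both groups and only the mutants carried Cre. This Cre acts in the myocardial lineage, and the study states that it also recombines in part of the epicardium. The labels give no sex and no litter.

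Chemokines are small secreted proteins that bind heptahelical receptors coupled to inhibitory G proteins and direct the migration of leukocytes, progenitors and endothelial cells along a gradient. Atypical receptors bind chemokines without coupling to G proteins and remove or transport them. In the developing heart, Cxcl12 and its receptor Cxcr4 act in the growth of coronary vessels, Ackr3 is a second receptor for Cxcl12 that takes part in valve formation, and macrophages that colonise the heart carry Cx3cr1, Ccr2 and other receptors of the family.

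The upstream sequences of 6 members are printed for reference, and no comparison between the groups rests on the sequences. In 5 of these members (Ccl6, Ccl9, Ccr1, Cx3cr1 and Cxcl14) every mutant heart had more than every wild type heart. Cxcr4, whose groups overlapped, is the receptor with a window that holds the letters bound by WT1 and EGR proteins. Each window is the 250 bases before the annotated start in RefSeq on GRCm38.p6, written 5′ to 3′ on the strand of the gene. They lie at chr11:83593088-83593337 (Ccl6, minus strand), chr11:83578637-83578886 (Ccl9, minus), chr9:123968693-123968942 (Ccr1, minus), chr9:120068297-120068546 (Cx3cr1, minus), chr13:56296552-56296801 (Cxcl14, minus) and chr1:128592300-128592549 (Cxcr4, minus). Capitals mark TATAAA on either strand and, in Cxcr4, also the WT1 and EGR type letters.
Ccl6: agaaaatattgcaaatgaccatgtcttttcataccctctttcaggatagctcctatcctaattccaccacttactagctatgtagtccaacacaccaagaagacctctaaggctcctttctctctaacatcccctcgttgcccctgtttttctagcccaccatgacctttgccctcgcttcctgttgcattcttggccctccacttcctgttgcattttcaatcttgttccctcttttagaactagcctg
Ccl9: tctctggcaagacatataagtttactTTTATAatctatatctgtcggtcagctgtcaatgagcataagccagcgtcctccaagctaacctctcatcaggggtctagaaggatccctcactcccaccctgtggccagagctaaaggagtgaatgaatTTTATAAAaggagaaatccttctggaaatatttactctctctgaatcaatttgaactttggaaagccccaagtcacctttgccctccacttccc
Ccr1: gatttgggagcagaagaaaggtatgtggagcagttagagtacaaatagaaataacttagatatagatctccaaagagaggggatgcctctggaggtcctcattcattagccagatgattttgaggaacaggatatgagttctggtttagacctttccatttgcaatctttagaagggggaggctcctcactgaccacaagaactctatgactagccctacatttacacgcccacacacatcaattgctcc
Cx3cr1: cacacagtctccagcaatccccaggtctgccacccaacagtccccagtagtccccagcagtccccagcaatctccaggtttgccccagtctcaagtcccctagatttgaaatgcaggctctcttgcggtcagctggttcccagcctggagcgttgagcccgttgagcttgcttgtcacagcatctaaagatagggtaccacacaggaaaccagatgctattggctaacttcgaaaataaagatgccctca
Cxcl14: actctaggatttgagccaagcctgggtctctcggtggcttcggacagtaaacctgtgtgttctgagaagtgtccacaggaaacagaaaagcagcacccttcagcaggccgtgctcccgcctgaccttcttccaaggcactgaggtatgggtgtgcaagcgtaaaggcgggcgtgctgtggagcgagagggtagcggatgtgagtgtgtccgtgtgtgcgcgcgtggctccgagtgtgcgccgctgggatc
Cxcr4: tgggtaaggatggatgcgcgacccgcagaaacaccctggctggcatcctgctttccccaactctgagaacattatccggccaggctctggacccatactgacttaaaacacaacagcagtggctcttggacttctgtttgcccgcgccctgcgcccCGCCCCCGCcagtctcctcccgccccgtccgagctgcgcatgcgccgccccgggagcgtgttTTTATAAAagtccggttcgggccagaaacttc

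RefSeq windows were matched for 46 of the 61 members, and each was searched on both strands for 4 sets of letters. The WT1 and EGR type letters GCGNGGGNG stood in 2 of these 46 members (Cxcr4, and Ccl21b, whose RefSeq window lies away from the counted copy of that gene), against 11.8% of all 27025 genes with a window and 10.5% of all 32851 windows. The PU.1 type letters GAGGAAGT, which myeloid genes often carry, stood in 1 member (Cxcr3), against 2.79% of all genes. The NF-kB type letters GGGANNTTC stood in 8 members (Ccl1, Ccr3, Cxcl1, Cxcl2, Cxcl3, Cxcl9, Cxcl10 and Cxcr2), or 17.4%, against 3.7% of all genes. Of the 22 members with a window that had enough counts to be tested, 1 held these letters (Cxcl10). TATAAA stood in 14 members, or 30.4%, against 14.3% of all genes, and in Cxcr4 and Ccl9 matches on both strands overlapped. Of the 5 printed genes that were higher in mutant hearts, Ccl9 alone held any of the 4 sets of letters. These are matches of letters within 250 bases and say nothing of which proteins were bound.

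Total counts ranged from 44244665 (wild type replicate 5) to 56373393 (wild type replicate 3). Levels within a gene are given as CPM, the count scaled to the size of the TMM-normalised library, in the order wild type replicates 2, 3 and 5 and then mutant replicates 1, 5 and 10. Wt1 itself had 40, 32.9 and 20 CPM in wild type hearts and 17.7, 33.3 and 35.7 CPM in mutant hearts, so a count over the whole gene in the whole heart did not separate the groups. Cardiomyocyte markers summed to between 16500 and 20500 CPM in each heart. Wild type replicate 3 stood apart in hepatocyte markers (753 CPM summed, against 0.801 to 19.7 CPM in the other 5 hearts), and wild type replicate 5 had the fewest counts, and without it edgeR gave 44 genes an adjusted p under 0.05, against 0 without any other 1 heart.

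Ccl6 had a 3.71-fold higher level in mutant hearts, and Cxcl14, Ccr1 and Cx3cr1 were higher by less, while the most abundant members, Cxcl12 and Ackr3, overlapped between the groups. Of the 61 members, 55 had at least 1 count in any heart. A filter on low counts left 30 members among 17473 genes, and edgeR's quasi-likelihood test compared both groups, with log2 fold changes taken as mutant over wild type. With Benjamini-Hochberg adjustment, 0 of the 30 members had an adjusted p under 0.05, as did 0% of all genes tested. At an unadjusted p under 0.05, 5 members were found (16.7%, background 5.73%), all of them higher in mutant hearts (background 3.14%) and none lower (background 2.59%). DESeq2, run on the same counts, gave an adjusted p under 0.05 to 2 of the 38 members it tested, Ccl6 among them, against 0.69% of all genes (0.405% for genes higher in mutant hearts), and limma gave it to none. The hearts of both groups did not overlap in 8 members (26.7%, background 11.2%). Of these, 7 were higher in mutant hearts (background 6.61%) and 1 was lower (background 4.59%). Fold changes were above 0 in 19 of the 30 members (background 49.8%), with a median log2 fold change of 0.17, against 0 over all genes tested. Between hearts, the median log2 deviation of these members had an SD of 0.2. Wild type replicate 2 was the lowest heart in 16 of the 30 members and the highest in 0, and wild type replicate 5 was the highest in 9. Without wild type replicate 2 the median log2 fold change was 0.21. As each library is a separate heart, the p-values set the difference between groups against the spread between hearts. The litters of these embryos are not given.

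**Figure D1:**
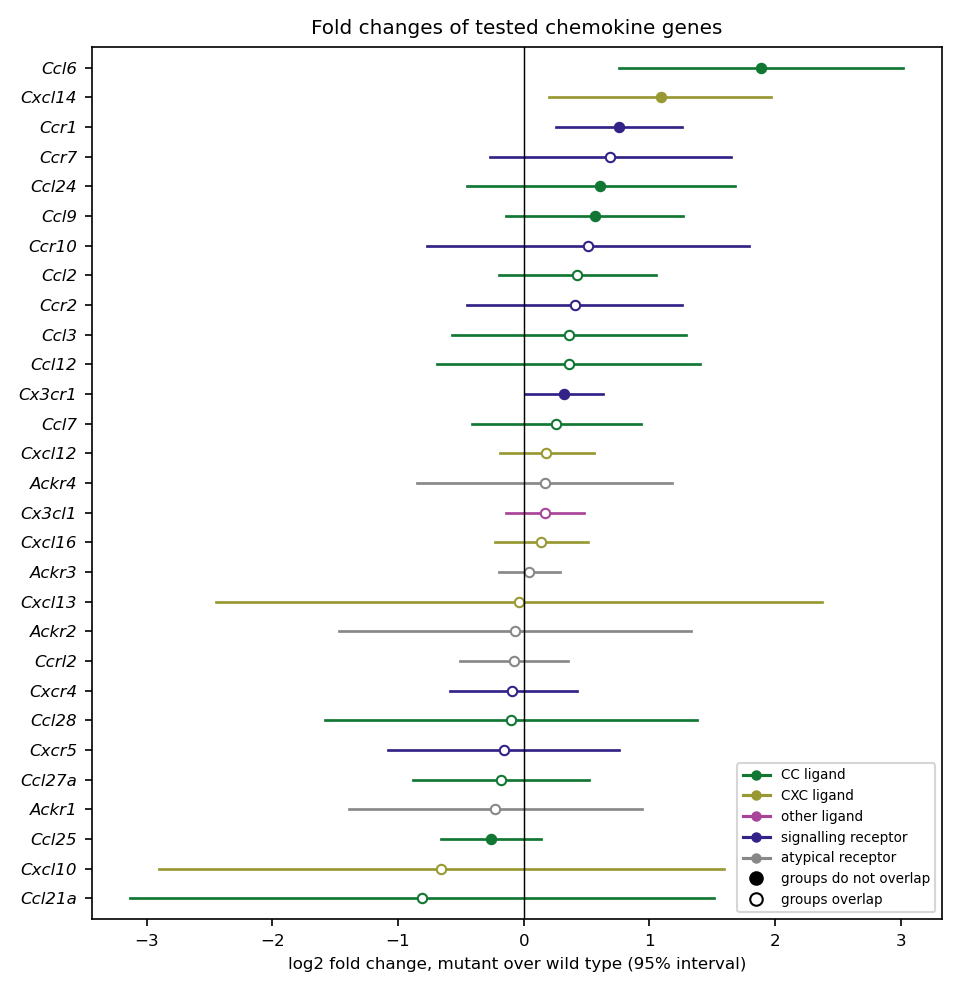
Each row is a chemokine gene that passed the low-count filter, and the horizontal axis is the log2 fold change of mutant over wild type hearts from edgeR, with its 95% interval as a line. Colours give the role, filled points are genes whose groups did not overlap, and the intervals of Ccl6, Cxcl14 and Ccr1 lie above 0, as does that of Cx3cr1 by little (0.01).

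Levels of different genes were compared as FPKM, which divides by gene length. The chemokine system of these hearts was led by Cxcl12 (mean of 73.1 FPKM over 6 hearts, range 58.0 to 94.5) and by Ackr3, which scavenges it (59.9 FPKM, range 56.0 to 63.7), and their ranges overlapped. Ccl27a (27.7 FPKM, range 20 to 45) and Cx3cl1 (11.2 FPKM, range 8.88 to 12.5) followed, each apart from its neighbours in this order. From Cxcr4 (5.09 FPKM) through Ccl25 (4.41), Cx3cr1 (3.95), Cxcl16 (3.39) and Ccl21a (3.36) to the lowest member, the ranges of successive genes overlapped. In all, 4 members had a mean of at least 10 FPKM, 19 of at least 1 FPKM and 35 of at least 0.1 FPKM. The lengths behind the deposited FPKM are shorter than the summed exons of some genes (3383 against 8176 bases for Cxcl12). Per kilobase of summed exons, Ackr3 (31.0 CPM) and Cxcl12 (30.2 CPM) led in the opposite order, Cx3cl1 (3.69 CPM) came after Cxcr4 (3.81 CPM), and Ccl25 moved from rank 6 to rank 20.

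**Figure D2:**
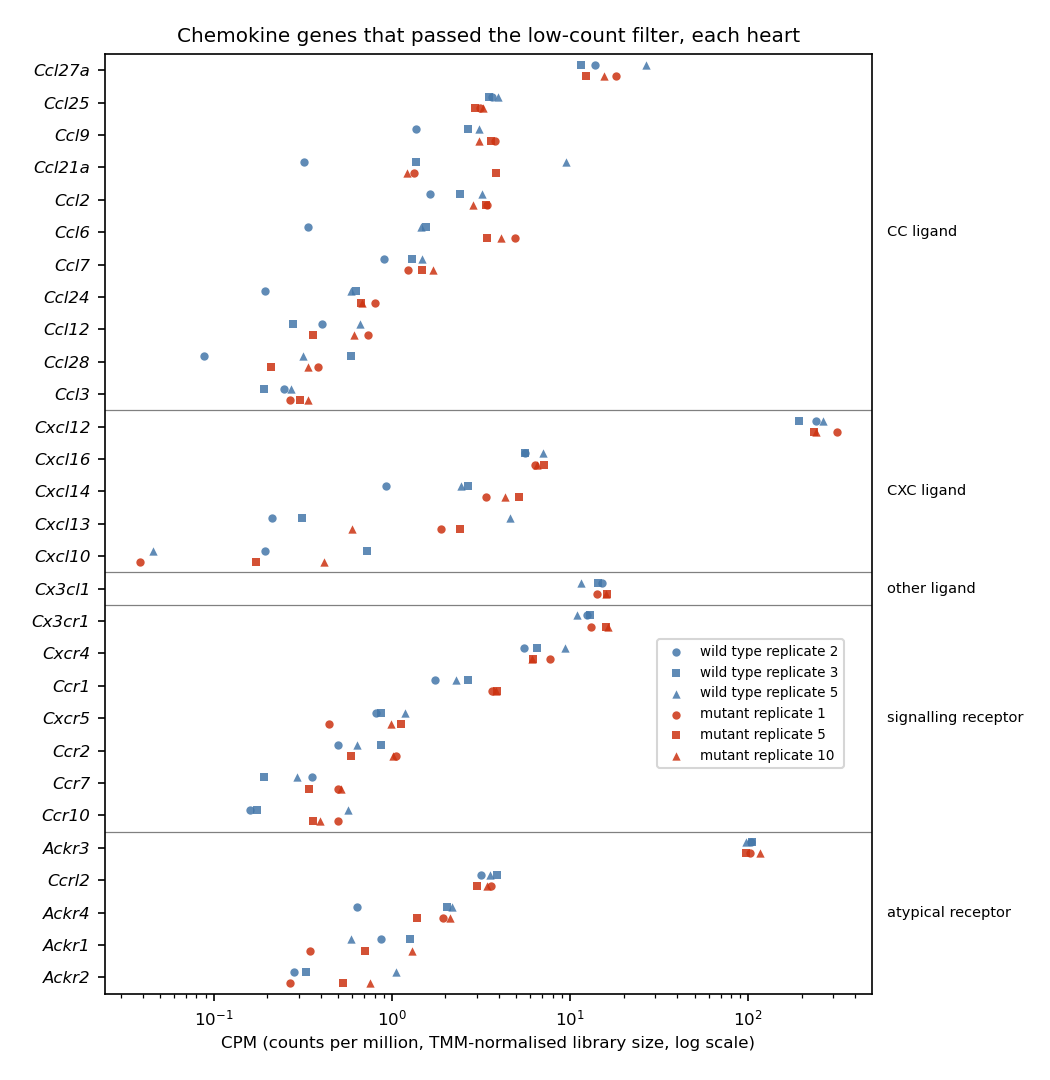
Each row is a chemokine gene that passed the filter, sorted by role and by level, and each point is 1 heart (blue, wild type; red, mutant; symbols give the replicate). The horizontal axis is CPM on a log scale: Cxcl12 and Ackr3 lie near or above 100 CPM, and Ccl6 and Ccr1 show red points to the right of all blue points.

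Cxcl12, Cxcr4 and Ackr3 form 1 signalling unit, and its 3 genes did not differ detectably between the groups. Cxcl12, the ligand, had 240, 192 and 263 CPM in wild type hearts and 314, 234 and 239 CPM in mutant hearts. Mutant replicate 1 was the highest heart and wild type replicate 3 the lowest, and the groups overlapped. The log2 fold change was 0.18 (standard error, SE, of 0.16, 95% interval -0.19 to 0.56, adjusted p = 0.985 from edgeR). Cxcr4, the receptor that couples to G proteins, had 5.49, 6.49 and 9.36 CPM and then 7.70, 6.20 and 6.14 CPM. Wild type replicate 5 was its highest heart, and the log2 fold change was -0.09 (95% interval -0.59 to 0.42), which became 0.16 without that heart. Ackr3 had 104, 105 and 97.7 CPM and then 103, 96.9 and 117 CPM, with a log2 fold change of 0.04 (95% interval -0.20 to 0.29). It had the second narrowest spread of the members tested (SD of 0.11 in log2 CPM within groups), and its sign turned to -0.03 without mutant replicate 10. Together, Cxcl12 and Ackr3 took between 76.2% and 82.3% of all chemokine counts of a heart. The ratio of Cxcl12 to Cxcr4 in FPKM was 17.5, 11.9 and 11.3 in wild type hearts and 16.3, 15.1 and 15.6 in mutant hearts, with overlap.

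Among the 23 CC ligands, 19 were detected and 11 were tested, 7 with a fold change above 0 and 4 below, with a median log2 fold change of 0.36. Ccl6, a macrophage chemokine of rodents that signals through Ccr1, had the largest fold change of all members tested. It had 19, 90 and 64 counts in wild type hearts and 256, 178 and 207 counts in mutant hearts, or 0.337, 1.56 and 1.45 CPM against 4.93, 3.40 and 4.11 CPM. Every mutant heart was above every wild type heart, and wild type replicate 2 lay well below the other two. The means were 1.12 ± 0.679 CPM (SD, n = 3) and 4.14 ± 0.765 CPM (SD, n = 3). The log2 fold change was 1.89 (SE 0.49, adjusted p = 0.519 in edgeR and 0.00585 in DESeq2). The adjusted p lay between 0.00585 and 1 over 13 settings, DESeq2 with 1 heart left out not counted. In edgeR the log2 fold change stayed between 1.46 (without wild type replicate 2) and 2.24 when 1 heart was left out. DESeq2 still called Ccl6 without wild type replicate 2, 3 or 5 (adjusted p = 0.000976, 0.00219 and 0.00132). It no longer called Ccl6 without any 1 of the mutant hearts.

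Ccl9, the neighbour of Ccl6 on chromosome 11 and another ligand of Ccr1, had 1.37, 2.66 and 3.07 CPM in wild type hearts and 3.81, 3.61 and 3.08 CPM in mutant hearts. Wild type replicate 5 and mutant replicate 10 were nearly tied, and with DESeq2's size factors or upper quartile scaling the groups of Ccl9 overlapped. Its log2 fold change was 0.57 (SE 0.31, adjusted p = 0.939 in edgeR). The count of Ccl6 over that of Ccl9 was 0.247, 0.588 and 0.474 in wild type hearts and 1.29, 0.942 and 1.34 in mutant hearts, with no overlap, a ratio chosen after its values were seen. Ccl24 (eotaxin-2, a ligand of Ccr3) had 0.195, 0.626 and 0.591 CPM and then 0.808, 0.668 and 0.676 CPM. Its mutant hearts all lay above the wild type hearts, by little for mutant replicates 5 and 10, and the log2 fold change was 0.61 (SE 0.46, adjusted p = 0.985 in edgeR).

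Ccl25, which attracts thymocyte precursors through Ccr9, was, of the members tested, the one whose mutant hearts all lay below the wild type hearts. It had 3.66, 3.53 and 3.93 CPM in wild type hearts and 3.12, 2.92 and 3.24 CPM in mutant hearts. Its spread within groups was the narrowest of the members tested (SD of 0.08 in log2 CPM), but the difference was small, with a log2 fold change of -0.26 (SE 0.18, 95% interval -0.66 to 0.14, adjusted p = 0.969 in edgeR). Markers of thymic epithelium summed to between 0.071 and 0.537 CPM in each heart, and Foxn1, which defines that epithelium, had 0 counts in all of them.

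The ligands of Ccr2, which recruit monocytes, were each present at a low level, and their groups overlapped. Ccl2 had 1.63, 2.40 and 3.20 CPM in wild type hearts and 3.44, 3.38 and 2.86 CPM in mutant hearts, and a log2 fold change of 0.42 (SE 0.27, adjusted p = 0.966 in edgeR). Wild type replicate 5 lay among the mutant hearts, and without it the log2 fold change was 0.68. Ccl7 (log2 fold change 0.26, SE 0.29) and Ccl12 (0.36, SE 0.45) ranged from 0.906 to 1.71 CPM and from 0.278 to 0.731 CPM over the 6 hearts. Ccl3, a ligand of Ccr1, had 0.249, 0.191 and 0.273 CPM and then 0.269, 0.305 and 0.338 CPM. Only mutant replicate 1 of Ccl3 lay within the wild type range, and the log2 fold change was 0.36 (SE 0.40). Ccl4, a macrophage inflammatory chemokine next to Ccl3 in the genome, did not pass the filter, with 9, 9 and 6 counts in wild type hearts and 29, 6 and 13 counts in mutant hearts.

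Ccl27a and Ccl28, ligands of Ccr10 made by epithelia, differed little in their group means. Ccl27a had 13.9, 11.6 and 26.7 CPM in wild type hearts and 18.2, 12.3 and 15.6 CPM in mutant hearts, with a log2 fold change of -0.18 (SE 0.30). Wild type replicate 5 was the highest heart, and the log2 fold change became 0.27 without it. Of the 100-base words in its exons, 26.5% also occur in other genes, among them Ccl27b (97.9% shared), so reads may be split between these copies or lost from both. Ccl28 had 5 to 34 counts a heart and a log2 fold change of -0.10 (SE 0.64), whose sign turned without wild type replicate 3 (0.64) or mutant replicate 5 (0.11).

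**Figure D3:**
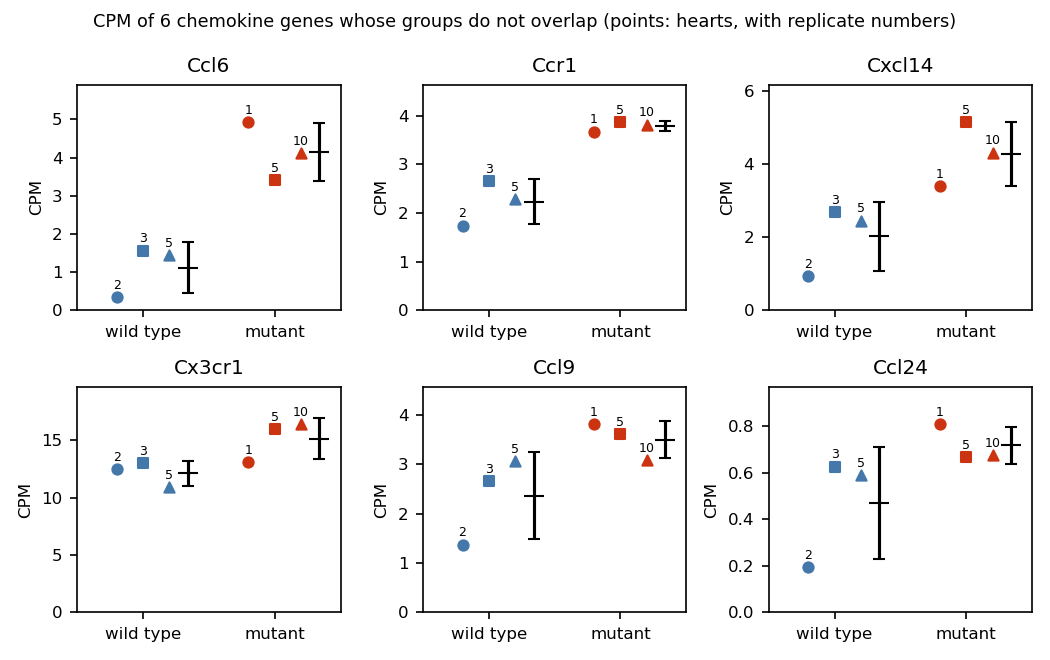
Each panel plots the CPM of 1 gene, with the 3 wild type hearts in blue and the 3 mutant hearts in red, replicate numbers beside the points, and the mean with its SD (n = 3) as the black bar. Of the 6 genes shown, Ccl6 has the widest gap (highest wild type heart 1.56 CPM, lowest mutant heart 3.40 CPM), while Cx3cr1 and Ccl9 are nearly tied between a wild type and a mutant heart.

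All 13 CXC ligands were detected, most of them at a few counts, and 5 were tested, 3 with a fold change above 0 and 2 below. Cxcl14, a chemokine that many tissues make without inflammation, was the CXC ligand with an unadjusted p under 0.05. It had 52, 154 and 108 counts in wild type hearts and 176, 270 and 217 counts in mutant hearts, or 0.923, 2.68 and 2.45 CPM against 3.39, 5.15 and 4.31 CPM. The groups did not overlap, and wild type replicate 2 was again the lowest heart. Its means were 2.02 ± 0.955 CPM (SD, n = 3) and 4.28 ± 0.883 CPM (SD, n = 3). The log2 fold change was 1.09 (SE 0.38, adjusted p = 0.763 in edgeR and 0.246 in DESeq2). The adjusted p lay between 0.246 and 1 over 13 settings, DESeq2 with 1 heart left out not counted. Without wild type replicate 2 the log2 fold change was 0.74. Cxcl16, a membrane-bound ligand of Cxcr6, ranged from 5.56 to 7.19 CPM with a log2 fold change of 0.14 (SE 0.16), and 18.3% of its exon bases lie opposite Zmynd15 on the other strand. Cx3cl1, the only CX3C ligand, is a membrane-anchored chemokine of endothelium and neurons. It had 15.1, 14.3 and 11.6 CPM and then 14.1, 16.1 and 15.9 CPM, so the groups overlapped, with a log2 fold change of 0.17 (SE 0.14, 95% interval -0.14 to 0.48).

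Cxcl10, Cxcl13 and Ccl21a varied most between hearts of the same group, with an SD within groups of 1.88, 1.87 and 1.86 in log2 CPM. Ccl21a, which guides cells with Ccr7 into lymphoid tissue, had 0.320, 1.37 and 9.54 CPM in wild type hearts and 1.33, 3.82 and 1.21 CPM in mutant hearts. Cxcl13, the ligand of Cxcr5, had 0.213, 0.313 and 4.59 CPM and then 1.90, 2.40 and 0.596 CPM. In both genes wild type replicate 5 was the highest heart, and mutant replicate 5 was the highest of the mutants. The log2 fold changes were -0.81 (SE 1.01) for Ccl21a and -0.04 (SE 1.05) for Cxcl13, and without wild type replicate 5 they became 1.32 and 2.63. DESeq2 without that heart gave Cxcl13 an adjusted p of 0.0029, which was not the case with all 6 hearts. Near-identical copies limit the reading of Ccl21a, since 50.3% of its 100-base words occur in other genes.

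Markers of lung and foregut epithelium, when summed, were highest in the same heart of each group as Ccl21a and Cxcl13. Summed over 6 genes they came to 0.941, 2.89 and 12.3 CPM in wild type hearts and 2.10, 11.8 and 1.11 CPM in mutant hearts, highest in replicate 5 of each group. Nkx2-1, which defines lung and thyroid epithelium, had 0, 0 and 64 counts and then 8, 65 and 0 counts. Epcam had 10, 37 and 267 counts and then 35, 264 and 29 counts. Not every marker of the list followed this order. Cdh1 had 3, 107 and 63 counts and then 23, 147 and 15 counts, and Sftpc had at most 7 counts in any heart. The part of this tissue in the levels of Ccl21a and Cxcl13 was not tested. Cxcl10, which interferon induces, followed another order, with 11, 42 and 2 counts in wild type hearts and 2, 9 and 21 counts in mutant hearts, highest in wild type replicate 3. Its log2 fold change of -0.66 (SE 0.98) became 0.74 without that heart.

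**Figure D4:**
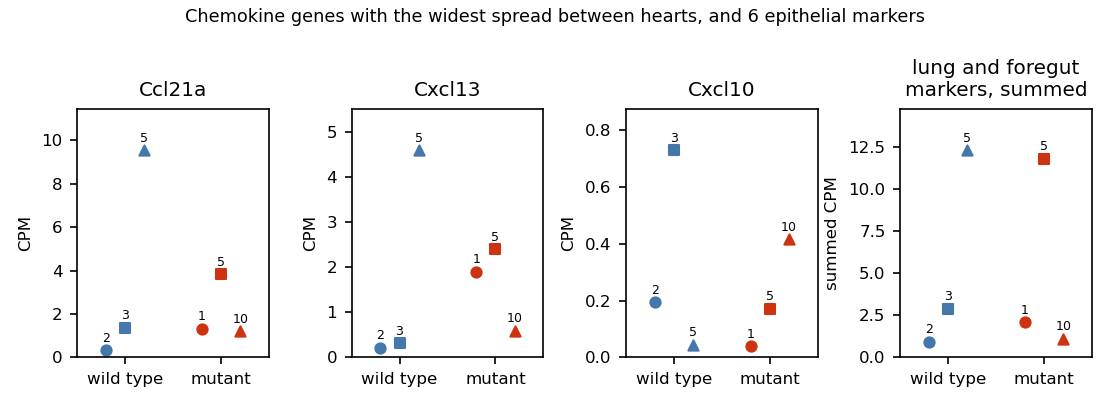
The first 3 panels plot the CPM of the chemokine genes with the widest spread, and the last panel the summed CPM of 6 lung and foregut markers, each point being 1 heart with its replicate number (blue, wild type; red, mutant). Ccl21a, Cxcl13 and the epithelial markers are highest in wild type replicate 5 and, among mutants, in mutant replicate 5, while Cxcl10 is highest in wild type replicate 3.

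The 18 signalling receptors had 17 detected members, and of the 8 tested, 6 had a fold change above 0 and 2 below, with a median log2 fold change of 0.46.

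Ccr1, the receptor for Ccl6, Ccl9 and Ccl3, had 1.74, 2.66 and 2.29 CPM in wild type hearts and 3.67, 3.87 and 3.82 CPM in mutant hearts. The mutant hearts were close together and all above the wild type hearts. Its log2 fold change was 0.76 (SE 0.22, adjusted p = 0.617 in edgeR and 0.155 in DESeq2). The adjusted p lay between 0.155 and 1 over 13 settings, DESeq2 with 1 heart left out not counted. Cx3cr1, the fractalkine receptor of tissue macrophages, was more abundant, with 12.5, 13 and 10.9 CPM and then 13.1, 16 and 16.4 CPM. Wild type replicate 3 and mutant replicate 1 were nearly tied, and the log2 fold change was 0.32 (SE 0.14, adjusted p = 0.865 in edgeR).

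Ccr2, the receptor of circulating monocytes, overlapped between the groups, with 28, 50 and 28 counts in wild type hearts and 55, 31 and 51 counts in mutant hearts. Its log2 fold change was 0.41 (SE 0.37, adjusted p = 0.985 in edgeR). Ccr7, the receptor for Ccl21a, had 11 to 26 counts a heart and a log2 fold change of 0.69 (SE 0.42). Ccr10 had 9 to 26 counts and 0.51 (SE 0.56; 1.32 without wild type replicate 5), and Cxcr5 had 23 to 59 counts and -0.16 (SE 0.40). Their groups overlapped.

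None of the 5 atypical receptors had an unadjusted p under 0.05 in edgeR, and their median log2 fold change was -0.07. Ccrl2, which binds the attractant chemerin, was close in all hearts, with 3.18, 3.88 and 3.54 CPM and then 3.62, 2.99 and 3.42 CPM, and a log2 fold change of -0.08 (SE 0.19, 95% interval -0.51 to 0.35). Ackr4, which scavenges Ccl19, Ccl21 and Ccl25, had 0.639, 2.03 and 2.18 CPM and then 1.94, 1.39 and 2.11 CPM, low in wild type replicate 2. Its log2 fold change was 0.17 (SE 0.44) and -0.21 without that heart. Ackr2, a scavenger of inflammatory CC chemokines, had a log2 fold change of -0.07 (SE 0.61), which became 0.75 without wild type replicate 5. Ackr1, the Duffy receptor of erythroid and venular endothelial cells, had a log2 fold change of -0.23 (SE 0.51) and 0.13 without mutant replicate 1. Of its exon bases, 25.7% lie in exons of Cadm3 on the same strand.

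Of the members that did not pass the filter, 7 had at least 10 counts in any heart. Ccl20, the ligand of Ccr6, had 9, 13 and 10 counts in wild type hearts and 0, 1 and 1 counts in mutant hearts. Its groups did not overlap, and the summed counts of 32 and 2 gave a level 15.7-fold lower in mutant hearts, with a counting interval of 4 to 135. In the fit without a filter, its adjusted p was 0.431 in edgeR, and it was 0.268 in DESeq2. Ccr9, with 19% of its exon bases opposite other genes (Slc6a20a among them), had 2, 0 and 0 counts and then 10, 1 and 4 counts. The ratio was 7.65 (counting interval 1.78 to 69), mutant replicate 1 held most of the mutant counts, and the groups overlapped. The eotaxin Ccl11 (0, 3 and 8 counts, then 12, 16 and 3), Ccl17 (13, 8 and 3, then 12, 1 and 8), Cxcl1 (3, 2 and 14, then 9, 19 and 3) and Ccr3 (5, 3 and 5, then 10, 4 and 7) overlapped as well.

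A further 18 members had 1 to 9 counts at most. Chosen after their values were seen, Cxcl5 had 0 counts in each wild type heart and 2, 9 and 7 counts in mutant hearts, at least 2.01-fold higher when a floor of 3 counts per library is set for the wild type hearts. Cxcl9 had 5, 6 and 2 counts in wild type hearts and 0 in each mutant heart, at least 1.37-fold lower by the same floor. Neither had an adjusted p under 0.05 in edgeR without the filter (0.584 and 0.772). The members at 0 counts in every heart were the ligands Ccl1, Ccl19, Ccl21b, Ccl26 and Xcl1 and the receptor Cxcr1, which allows a level of up to 0.0522 to 0.0682 CPM (3 counts) depending on the heart. Ccl21b shares 100% of its 100-base words with other genes, and whether reads from it were lost in the counting was not tested.

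Most macrophage markers were also higher in mutant hearts. Of 18 markers listed, 17 were tested, 14 had a fold change above 0 (background 49.8%), and 11 had an unadjusted p under 0.05, all higher in mutant hearts (background 3.14%; Csf1r, Adgre1, C1qa, C1qb, C1qc, Cd68, Fcgr1, Timd4, Vsig4, Msr1 and Folr2). With edgeR's adjusted p under 0.05 there were 0 (background 0%), and with DESeq2's there were 5, all higher (background 0.405%). Mrc1, Mertk and F13a1 were the 3 tested markers below 0, with log2 fold changes of -0.19, -0.20 and -0.04. The summed level of the listed markers was 115, 131 and 143 CPM in wild type hearts and 183, 185 and 190 CPM in mutant hearts, with no overlap. The complement gene C1qa had 11.5, 12.0 and 16.7 CPM and then 27.7, 22.1 and 29.6 CPM (log2 fold change 0.98), and Csf1r, the receptor that macrophages need to survive, had 21.0, 24.1 and 20.1 CPM and then 26.1, 28.0 and 30.0 CPM (0.37). Timd4, a receptor for apoptotic cells on embryo-derived macrophages, had 14, 30 and 7 counts and then 138, 85 and 81 counts. Of the markers of resident macrophages, Cd163 had 0 to 4 counts in each heart. In RNA from a whole heart, more cells of a type and more RNA per cell cannot be told apart.

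Relative to 100 CPM of these markers, Ccl6 came to 0.293, 1.19 and 1.01 CPM in wild type hearts and 2.69, 1.84 and 2.16 CPM in mutant hearts, with no overlap. By the same ratio Ccr1, Cx3cr1, Ccl9 and Ccr2 overlapped, with Cx3cr1 at 10.9, 9.92 and 7.62 CPM and then 7.16, 8.65 and 8.63 CPM. These ratios were chosen after the values were seen and carry no test. The part of macrophage number in the levels of these or other receptors and ligands was not tested.

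Monocyte and neutrophil markers summed to 4.42, 6.61 and 10.5 CPM in wild type hearts and 11.8, 13.1 and 12.3 CPM in mutant hearts, with no overlap, although none of the 7 tested had an unadjusted p under 0.05 in edgeR, none was called by DESeq2, and Ly6c2, a marker of classical monocytes, had 0 to 4 counts a heart. All 7 megakaryocyte and platelet markers had a fold change above 0 (background 49.8%). Of these, 5 had an unadjusted p under 0.05 in edgeR (background 3.14% for genes higher in mutant hearts, among them Itga2b, Gp6, Gp5 and Treml1). Neither edgeR nor DESeq2 gave an adjusted p under 0.05 to any of the 7 (background 0% and 0.69%). Lymphoid markers summed to between 0.231 and 0.75 CPM in each heart. Endothelial markers overlapped between the groups (836 to 1070 CPM in wild type hearts, 973 to 1190 CPM in mutant hearts), as did epicardial markers (255 to 509 and 345 to 633 CPM). Of the 10 epicardial markers, 5 had an unadjusted p under 0.05, all higher in mutant hearts (background 3.14%; Upk1b, Msln, Krt8, Krt18 and Gpm6a). Among these, Msln and Gpm6a overlapped between the groups. Tbx18 (log2 fold change -0.10) and Aldh1a2 (-0.26) were the 2 epicardial markers below 0. Of the 6 fibroblast markers, 1 was higher (Col1a1, log2 fold change 0.95) and 1 lower (Tcf21, -1.10) at an unadjusted p under 0.05 (background 3.14% and 2.59%). The part of these cells in the chemokine levels was not tested.

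**Figure D5:**
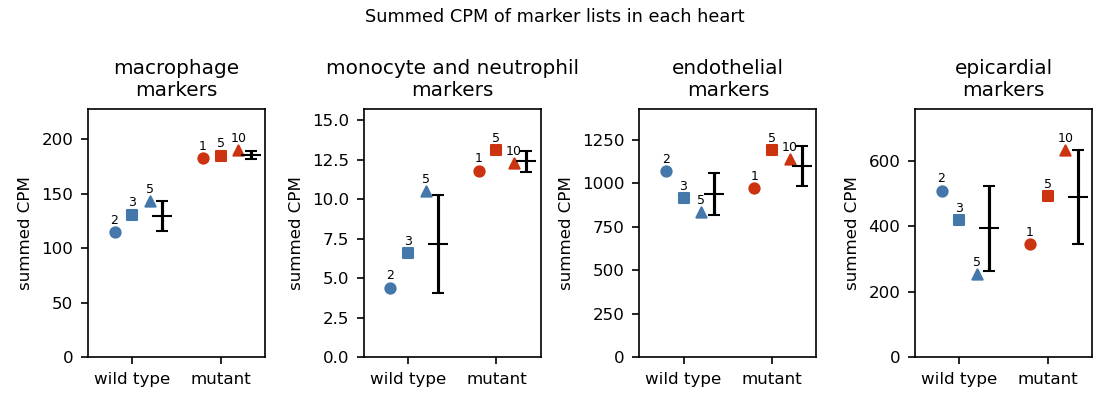
Each panel plots the summed CPM of 1 list of cell type markers in each heart, with replicate numbers beside the points and the mean with its SD (n = 3) as the black bar. Macrophage markers (115 to 143 CPM in wild type hearts, 183 to 190 CPM in mutant hearts) and monocyte and neutrophil markers do not overlap between the groups, whereas endothelial and epicardial markers do.

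Other genes of the chemokine pathway were taken from 5 lists, and edgeR gave an adjusted p under 0.05 to 0 of them. Of 37 genes that carry the signal inside the cell, 34 were tested, and 28 had a fold change above 0 (background 49.8%). At an unadjusted p under 0.05, 4 were higher in mutant hearts (background 3.14%) and 1 was lower (background 2.59%). The higher genes were Stat3 (log2 fold change 0.63), the leukocyte guanine nucleotide exchange factors Dock2 (0.88) and Vav1 (0.77), and Rgs18 (1.11), a regulator of G-protein signalling in platelets. Stat3 had 79.4, 74.4 and 57.3 CPM in wild type hearts and 99.3, 120 and 107 CPM in mutant hearts, without overlap. The G-protein subunit gene Gng2 was lower, with 56.1, 56.5 and 59.9 CPM and then 47.4, 48.3 and 49.0 CPM (log2 fold change -0.25). DESeq2 called 1 gene of this list (background 0.69%).

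Among 16 genes for the processing and retention of chemokines, 15 were tested and 1 had an unadjusted p under 0.05 (background 5.73%). It was Mmp9, a gelatinase that trims chemokines, with 7, 25 and 6 counts in wild type hearts and 47, 41 and 39 counts in mutant hearts (log2 fold change 1.79). The platelet chemokine Ppbp had 2.61, 1.17 and 1.36 CPM and then 4.33, 8.55 and 7.43 CPM (log2 fold change 1.98), and Pf4, another platelet chemokine, had 6.21, 6.5 and 10.7 CPM and then 11.1, 16.1 and 14.4 CPM (0.84). Gpr182, an atypical receptor of endothelium, had a log2 fold change of 0.39. Pitpnm3, a proposed receptor for a human CC chemokine, was lower, with 1.67, 1.60 and 2.09 CPM and then 0.693, 0.553 and 0.874 CPM (log2 fold change -1.33), and its groups did not overlap. In the list of 8 genes that holds these 4, DESeq2 called 1 gene higher and 1 lower (background 0.69% for both directions together).

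Receptors for other attractants showed both directions. The complement receptors C5ar1 (log2 fold change 0.98) and C3ar1 (0.48) and the sphingosine-1-phosphate receptor S1pr1 (0.30) were higher at an unadjusted p under 0.05, and S1pr2 was lower (-0.26). These were 3 higher (background 3.14%) and 1 lower (background 2.59%) of 8 tested. C5ar1 had 1.69, 1.41 and 0.977 CPM in wild type hearts and 2.10, 2.79 and 3.16 CPM in mutant hearts, without overlap. Among 12 cytokines and NF-kB factors that induce chemokines, 9 were tested and 1 had an unadjusted p under 0.05 (background 5.73%). It was Il1a, with 4, 15 and 6 counts and then 28, 13 and 28 counts (log2 fold change 1.5), and its groups overlapped. DESeq2 called no gene of these last lists.

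Many chemokine genes lie in clusters, and levels were summed over clusters that were chosen with the values of their genes known. On chromosome 11 from 83525778 to 83664683 (GRCm38), Ccl5, Ccl9, Ccl6, Ccl3 and Ccl4 summed to 2.11, 4.57 and 4.93 CPM in wild type hearts and 9.58, 7.44 and 7.79 CPM in mutant hearts, without overlap. Ccl6 and Ccl9 are 9.24 kb apart there, with log2 fold changes of 1.89 and 0.57. The monocyte attractants from 82035571 to 82116799 on the same chromosome (Ccl2, Ccl7, Ccl11, Ccl12 and Ccl8) summed to 2.95, 4.03 and 5.52 CPM and then 5.69, 5.51 and 5.24 CPM, and wild type replicate 5 lay among the mutant hearts. On chromosome 5, the neutrophil attractants Cxcl5, Cxcl3, Cxcl15, Cxcl1 and Cxcl2 summed to 0.0695 to 0.477 CPM in wild type hearts and 0.258 to 0.686 CPM in mutant hearts. The interferon-induced ligands of Cxcr3 on that chromosome (Cxcl9, Cxcl10 and Cxcl11) summed to 0.227 to 0.904 CPM and 0.0385 to 0.417 CPM, and both of these clusters overlapped between the groups.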

How the data were processed

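Whole hearts were sequenced as 2 groups of 3, and samples were grouped by their labels. The counts deposited by the authors are whole numbers per gene without normalization. According to the methods, reads were trimmed, aligned with STAR to the mouse genome mm10, and uniquely mapped reads were assigned to genes with featureCounts, whereas the submitters' processing notes name HTSeq. The strand setting is not given in the sources used here, so reads on bases shared with a gene on the opposite strand are uncertain. The FPKM values deposited by the authors equal the count divided by a fixed length per gene and the total count of the heart (largest relative deviation 8e-15).

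Counts were compared with the quasi-likelihood test of edgeR 4.0.16 (R 4.3.3), two-sided, with TMM normalization, filterByExpr (count minimum 10, total minimum 15) and Benjamini-Hochberg adjustment over 17473 genes at a threshold of 0.05. CPM refers to TMM-normalised libraries. DESeq2 1.42.0, limma 3.58.1 (voom, and trend on the log2 of FPKM plus 1 or 0.1), other scalings, no filter, and each heart left out in turn were tried as alternatives. DESeq2 with each heart left out, and the count of members with an unadjusted p under 0.05, were added after the data were seen. edgeR and DESeq2 were tested on simulated counts. Every member that passed the filter was named except where a gene is not reported here, which holds for a few genes that remain in the counts. Also named were members with at least 10 counts in any heart, members at 0 in every heart, and genes of the pathway lists with an unadjusted p under 0.05. Of the cell type marker lists, examples are named. The members and lists were chosen with earlier results of these data known. Reads carry no molecular identifiers, so floors (3 counts) and counting intervals (95%, exact) cover counting error only. Positions of genes come from GENCODE M21 (GRCm38).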

Additional observations from a re-analysis of the deposited data

How the results depend on the processing

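No paired analysis was possible because the groups share only 1 replicate number (5), and nothing in the labels ties those hearts together. Over all genes, edgeR found 0 at an adjusted p under 0.05, DESeq2 133, edgeR without the filter on low counts 34, and edgeR with 1 heart left out between 0 and 44 (44 without wild type replicate 5). Chemokine genes called numbered 0 in edgeR and limma under each setting, and 2 in DESeq2. DESeq2 with 1 heart left out, added after the data were seen, called between 1 and 3, with Ccl6 not called without each mutant heart and Cxcl13 called without wild type replicate 5. Members with an unadjusted p under 0.05 numbered 5, and 8 without the filter and between 4 and 9 with 1 heart left out (9 without wild type replicate 5). The median log2 fold change of 0.17 was 0.40 without the filter, 0.31 in limma-voom, 0.09 in limma on log2(FPKM + 1) and between 0.20 and 0.44 with 1 heart left out (0.44 without wild type replicate 5). Members whose groups did not overlap numbered 8, and 7 in DESeq2 and with DESeq2's size factors or upper quartile scaling in edgeR. They numbered 11 without the filter, and between 8 and 14 with 1 heart left out (14 without wild type replicate 5). With fewer hearts in a group, any gene separates more easily. Shares over all genes under these settings are not given here, so these member counts cannot be set against a background.

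Of 390 log2 fold changes of the 30 members under 13 settings, 365 kept direction and call. A further 2 (in DESeq2, Ccl6 among them) passed the threshold, and 23 in 11 members changed sign, none of them past the threshold. These settings do not include DESeq2 with 1 heart left out. There, Cxcl13 went from -0.05 with all hearts to 2.63 without wild type replicate 5, past the threshold. With limma-voom the sign turned for Cxcl13 (1.19), Ccl21a (0.32), Ccl28 (0.22) and Ackr2 (0.10). On log2 FPKM it turned for Cxcl13 (0.24 with a pseudocount of 1, 0.80 with 0.1) and Ccl21a (0.08 with 0.1). With 1 heart left out, log2 fold changes lay from -0.56 to 2.63 for Cxcl13, -1.56 to 1.32 for Ccl21a, -1.63 to 0.74 for Cxcl10, -0.44 to 0.75 for Ackr2, -0.56 to 0.64 for Ccl28, -0.79 to 0.13 for Ackr1, -0.21 to 0.44 for Ackr4, -0.40 to 0.27 for Ccl27a, -0.42 to 0.15 for Cxcr5, -0.24 to 0.16 for Cxcr4 and -0.03 to 0.09 for Ackr3. The cause of these changes was not tested. Low counts limit the 25 detected members that did not pass the filter, 18 of which had at most 9 counts in any heart.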
